A study of Rattus norvegicus with 24 samples.

Results

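The comparison described here sets lungs taken 3 weeks after monocrotaline (MCT) against lungs taken 3 weeks after PBS, across every gene with enough counts. It holds 8 of the 24 libraries of the series, chosen by their labels: 4 MCT rats and 4 PBS rats of Week-3, each library from the lung of 1 rat, with no pooling. All rats were wild-type male Sprague-Dawley rats, and their lungs were collected on day 21. The MCT rats had received the plant alkaloid at 50 mg per kg by intraperitoneal injection, and the PBS rats had received the buffer alone. Their age is not given in the sources used here. The lungs were perfused before poly-A RNA was extracted from the whole tissue and made into libraries with a kit that keeps the strand, so the values are averages over all cell types of the lung. The replicate numbers of MCT and PBS rats name separate animals. The question put to these libraries was which genes differ between MCT and PBS lungs at the last time point of this model of pulmonary hypertension.

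MCT is converted in the liver to a reactive pyrrole that reaches the lung first and injures the endothelium of its small vessels. In the weeks that follow, the arterial wall thickens, inflammatory cells gather and pulmonary pressure climbs, which makes the MCT rat a common model of pulmonary hypertension. The endothelium of the lung is unusual for its mass. Its capillary cells lie beneath the epithelium of the alveolar surface, clear prostaglandins, and express angiopoietin, BMP and adrenomedullin receptors.

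Total counts lay between 29889968 and 31458596 in MCT libraries and between 28357609 and 31082646 in PBS libraries, and at least 10 counts were found for 16301 to 16428 genes in MCT and 15614 to 16096 genes in PBS libraries. The first principal component of log2 CPM (counts scaled to a common library size of 1000000) held 44.9% of the variance and was positive in all 4 MCT and negative in all 4 PBS libraries. PBS replicate 3 stood farthest from its own group, with an SD of its log2 deviations of 0.95, against 0.63 to 0.68 in the other PBS and 0.45 to 0.55 in the MCT libraries. The labelled tissue was checked with lung markers. Sftpa1, which encodes a surfactant protein of alveolar type 2 cells, had 8430.4, 10248, 8235 and 8731 CPM in the MCT rats, against 6318, 4963, 7107 and 5598 CPM in the PBS rats. Ager of alveolar type 1 cells had 848 to 1441 CPM in MCT libraries, against 992 to 1239.7 CPM in PBS libraries, and Cdh5, the cadherin of endothelial junctions, had 310.3 to 345 CPM in MCT libraries, against 760.4 to 988 CPM in PBS libraries. All of these defining markers were therefore present in all 8 libraries.

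Of 16138 genes tested by edgeR's quasi-likelihood test, 1791 were higher in MCT lungs and 1775 were lower where a call needed a Benjamini-Hochberg adjusted p under 0.05 and more than a 1.5-fold change (0.585 in log2), which is 11.1% of the genes in the higher direction and 11.0% in the lower. The median log2 fold change over all genes tested was 0.01, so the changes below are relative to a centre near 0. By the values alone, all 4 MCT libraries lay above all 4 PBS libraries for 2473 genes (15.3%) and below them for 2644 genes (16.4%). Changes of more than 2 on the log2 scale were found for 320 genes in the higher and 161 genes in the lower direction. The share of calls depended on gene length. In the shortest of 5 equal classes by exonic length, 13.2% were higher and 4.86% lower in MCT lungs, while in the longest class 7.90% were higher and 19.2% lower. The median exonic length was 1950 bases for genes that rose and 3076 bases for genes that fell, and the part of RNA quality or library making in this was not tested.

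**Figure D1:**
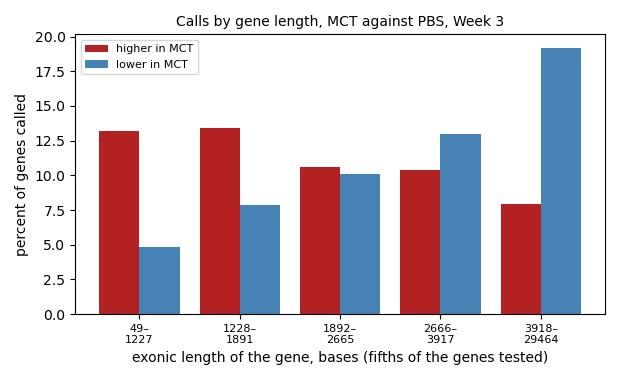
Percent of genes called higher (left bars) and lower (right bars) in MCT against PBS lungs at Week-3, over 5 equal groups of the genes tested, ordered by exonic length in bases. Calls in the higher direction make up 13.2% of the shortest class and 7.90% of the longest, and calls in the lower direction 4.86% and 19.2%.

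Symbols were known for 3274 of the genes tested. The only table that pairs the identifiers with symbols lists genes that the study had itself called on these rats, in a copy that is shortened, so every named gene below was selected on these samples and genes that rose are named less often. Among genes with a symbol, 631 were higher (19.3%) and 1328 lower (40.6%) in MCT lungs, with a median log2 fold change of -0.30, and 1160 of the genes that rose and 447 of those that fell have no name here. The counts within gene groups below are to be read against these shares. Many genes listed for a group had no symbol and do not enter its count. For example, 19 of 50 genes listed for lysosomes and 8 of 29 listed for smooth muscle and pericytes were tested. Large fold changes also belong to unnamed genes, of which a pair with over 100 CPM in every MCT library is given. ENSRNOG00000024181, on chromosome 10 at 14701253 to 14703668 (Rnor_6.0), had 204, 140.3, 129.7 and 276 CPM in the MCT rats, against 2.36, 1.28, 0.436 and 1.09 CPM in the PBS rats, and ENSRNOG00000053494 on chromosome 15 had 663, 297, 279 and 501 CPM in the MCT rats, against 5.53, 1.32, 3.23 and 1.99 CPM in the PBS rats. Both were picked out after their values were seen, and their log2 fold changes were 7.17 and 7.17.

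**Figure D2:**
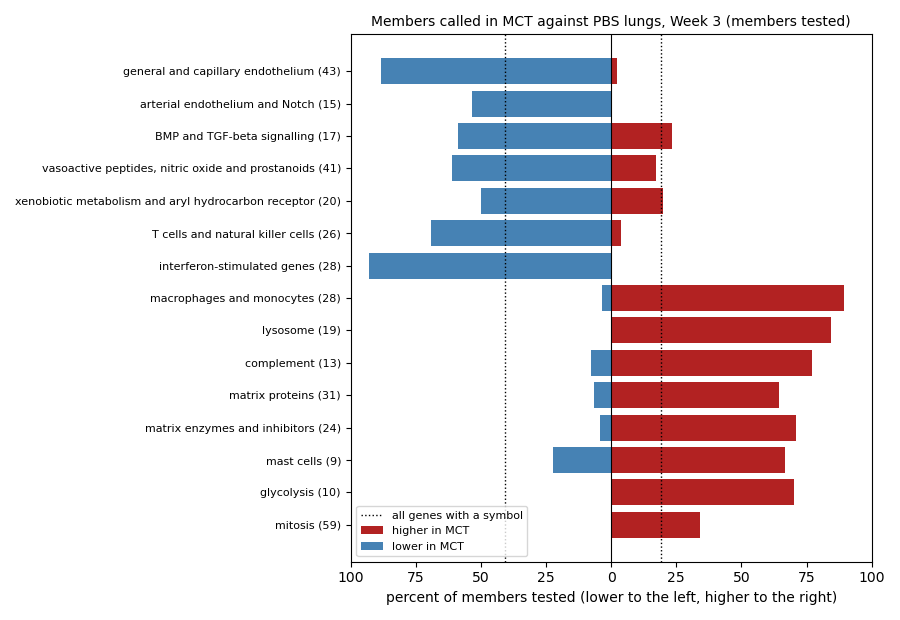
Percent of the members tested of 15 gene groups (rows, with the number tested) that were called higher (bars to the right) or lower (bars to the left) in MCT against PBS lungs at Week-3. Dotted lines mark the shares over all genes with a symbol, 19.3% higher and 40.6% lower. The endothelial and interferon groups lie almost wholly to the left and the macrophage and lysosome groups to the right.

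Named endothelial genes were lower in MCT lungs almost throughout. Of 60 genes listed for general and capillary endothelium, 43 had a symbol and were tested. The count is thus limited to genes that the study had itself called. Of the 43, 38 fell, against 40.6% of all genes with a symbol, 1 rose and 4 were not called. The median log2 fold change was -1.28. The summed level of the 43 was 8742 to 9430.3 CPM in MCT libraries, against 23304 to 27046 CPM in PBS libraries. In whole lung, fewer endothelial cells and less RNA per cell cannot be told apart. Hpgd, the enzyme that breaks down prostaglandins, had 9.57, 5.82, 10.2 and 11.3 CPM in the MCT rats, against 122, 155, 160.5 and 111 CPM in the PBS rats (log2 fold change -3.89 ± 0.22 (SE), adjusted p = 2.23e-06). Tek, the receptor for angiopoietins, had 59.1, 56.8, 75.9 and 71.4 CPM in the MCT rats, against 691, 726, 838 and 732 CPM in the PBS rats (log2 fold change -3.50 ± 0.13 (SE), adjusted p = 5.8e-07). Calcrl, which forms the adrenomedullin receptor together with RAMP proteins, had 235, 159.5, 183 and 176 CPM in the MCT rats, against 2189, 2254, 2228 and 1615 CPM in the PBS rats (log2 fold change -3.46 ± 0.16 (SE), adjusted p = 1.07e-06). For each of these genes the highest MCT library was far below the lowest PBS library, though MCT values of Hpgd ran from 5.82 to 11.3 CPM.

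Clec14a, a lectin-like surface protein of endothelium, had 77.1, 89.9, 77.4 and 89.8 CPM in the MCT rats, against 579.9, 626, 653 and 454 CPM in the PBS rats. Tmem100, an endothelial membrane protein induced by BMP signals, had 77.3, 69.97, 71.5 and 60.2 CPM in the MCT rats, against 471, 581, 424 and 357 CPM in the PBS rats. Nostrin, which binds endothelial nitric oxide synthase, had 22.3, 20.4, 23.9 and 26.8 CPM in the MCT rats, against 193, 124, 82.9 and 150.3 CPM in the PBS rats. Their log2 fold changes were -2.79, -2.72 and -2.56, and in none of these genes did the groups overlap. Epas1, the oxygen-regulated transcription factor HIF-2 alpha, was among the most abundant genes that fell, with 1454, 1790.2, 1651 and 1632 CPM in the MCT rats, against 4426, 4575, 4137 and 3719.8 CPM in the PBS rats. It did so by less on the log2 scale, at -1.37, and Cdh5 and the VEGF receptor Kdr changed by -1.47 and -1.16. The member that rose was Fibin, with 85.2 to 130.0 CPM in MCT libraries, against 40.7 to 70.9 CPM in PBS libraries. The members not called were the nitric oxide synthase Nos3 (0.43, adjusted p = 0.0536), Procr (0.57), Mmrn2 (-0.39) and Apln (0.18), the ligand of the apelin receptor. Log2 fold changes within the endothelial list thus ran from -3.89 for Hpgd to 0.90 for Fibin.

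Genes of arterial endothelium and the Notch pathway, which sets arterial identity, followed in part. Of 15 tested, 8 fell, none rose and 7 were not called, with a median of -0.75. Lrrn1 had 3.44, 1.79, 1.14 and 1.11 CPM in the MCT rats, against 34.7, 30.998, 27.1 and 33.4 CPM in the PBS rats. Sema3g, a secreted semaphorin of arterial cells, had 27.4, 43.6, 43.1 and 40.6 CPM in the MCT rats, against 333, 311, 352 and 356 CPM in the PBS rats. Efnb2, the ephrin that marks arteries, had 72.1, 82.2, 83.1 and 69.1 CPM in the MCT rats, against 408, 489.9, 491 and 420.1 CPM in the PBS rats. The PBS values of these genes spanned a narrow range and none came near an MCT value. The Notch ligand Dll4 (-2.26), the Notch target Hey1 (-1.54) and the transcription factor Sox17 (-1.52) fell by smaller steps. In the arterial list, 10 of 15 members had all MCT values below all PBS values, against 38.4% of all genes with a symbol.

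Venous and lymphatic genes moved in both directions. Of 10 tested, 4 rose and 5 fell (3 without MCT replicate 2), and the median was -0.14. Ccl21, the chemokine that lymphatic endothelium releases to draw in dendritic and T cells, had 337, 354, 629 and 428 CPM in the MCT rats, against 46.01, 41.95, 25.3 and 26.3 CPM in the PBS rats (log2 fold change 3.65 ± 0.27 (SE), adjusted p = 1.33e-05). Reads of near-identical Ccl21 copies, if the rat carries them as the mouse does, could be split or shared by the counting, so its level is uncertain. Reln (1.91), Mmrn1 (1.53) and Flt4 (1.18), the receptor for the lymphatic growth factors VEGF-C and VEGF-D, rose too, and all MCT values lay above all PBS values for these 4 genes. Ackr4, which clears Ccl21 and Ccl19, went the other way with 3.48, 3.43, 4.37 and 5.57 CPM in the MCT rats, against 24.4, 26.3, 22.6 and 23.1 CPM in the PBS rats. Lyve1, a hyaluronan receptor of lymphatic endothelium that some macrophages also carry, fell by 1.71 on the log2 scale, and Vwf, the clotting protein stored in endothelium, fell by 0.67.

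**Figure D3:**
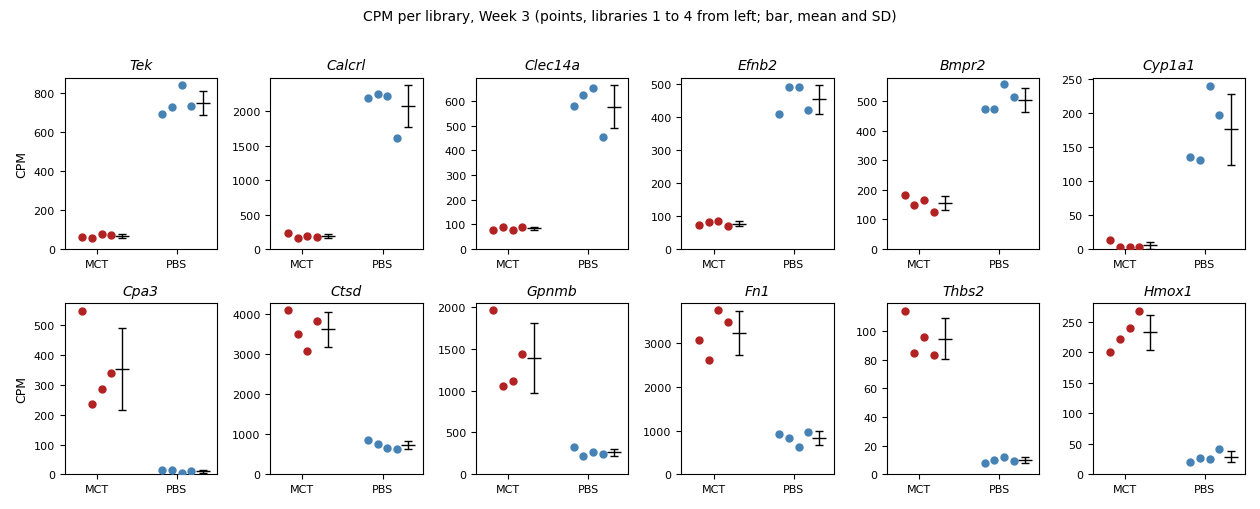
CPM (vertical axes, starting at 0) of 12 genes in the 4 MCT (left) and 4 PBS (right) libraries of Week-3. Points are libraries 1 to 4, and bars give the mean and SD of each group (n = 4). The groups do not overlap in any panel: the 6 genes of the upper row are lower and the 6 genes of the lower row higher in MCT lungs.

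Signalling systems that act on lung vessels were examined next, many of whose members are endothelial genes. Of 17 genes of BMP and TGF-beta signalling tested, 10 fell and 4 rose (median -0.68), and 2 rose without MCT replicate 1. Bmpr2, the type 2 BMP receptor whose loss-of-function variants cause heritable pulmonary arterial hypertension in people, had 182, 149.7, 165 and 125 CPM in the MCT rats, against 475, 472, 558 and 515 CPM in the PBS rats (log2 fold change -1.70 ± 0.13 (SE), adjusted p = 1.48e-05). Acvrl1, the type 1 receptor ALK1 that works with it in endothelium, had 318, 346, 350.5 and 306 CPM in the MCT rats, against 666, 813, 645 and 695 CPM in the PBS rats. The 4 MCT libraries held less of both receptors than any PBS library. The inhibitory SMAD Smad6 had a log2 fold change of -1.08. The BMP target Id1 was not called, at -0.50 with an adjusted p of 0.0314, since its change was under the fold threshold. The ligand Bmp2 was higher with 26.5, 23.02, 24.5 and 21.3 CPM in the MCT rats, against 13.7, 20.9, 9.09 and 11.98 CPM in the PBS rats, and Ltbp2, which lies in the matrix beside microfibrils, had 505 to 671 CPM in MCT libraries, against 186 to 319 CPM in PBS libraries.

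Of 41 genes of vasoactive peptides, nitric oxide and prostanoids tested, 25 fell and 7 rose, with a median of -0.85. Beside Hpgd and Calcrl, Ramp2, the partner of Calcrl, had 21.3, 18.1, 21.4 and 21.04 CPM in the MCT rats, against 59.8, 70.6, 46.7 and 56.6 CPM in the PBS rats, and Aplnr, the apelin receptor, had 71.4, 60.4, 61.6 and 54.7 CPM in the MCT rats, against 231, 219, 175 and 123 CPM in the PBS rats. Receptor and partner were thus both low in all 4 MCT libraries, while the ligand Adm, adrenomedullin, was slightly higher at 12.5 to 17.2 CPM in MCT libraries, against 6.397 to 13.1 CPM in PBS libraries, with overlapping groups. Kng2, a kininogen from which kinins are cut, had 50.97, 50.3, 36.5 and 62.6 CPM in the MCT rats, against 7.51, 13.7, 7.81 and 7.91 CPM in the PBS rats. Htr2b, a serotonin receptor, had 12.95, 4.67, 4.98 and 7.46 CPM in the MCT rats, against 3.47, 3.701, 0.545 and 2.43 CPM in the PBS rats, with low values and MCT replicate 1 the highest, and its call (adjusted p = 0.0435) was lost when any 1 of 6 libraries was left out. Among 20 genes of VEGF, angiopoietin and PDGF signalling, 10 fell and 5 rose (median -0.77), not far from the shares of all genes with a symbol. The VEGF receptor Flt1 had 115 to 131 CPM in MCT libraries, against 249 to 308 CPM in PBS libraries. Pdgfd fell by 1.71 on the log2 scale. Vegfd, which signals through Flt4 and Kdr, had 46.8, 83.7, 108 and 58.8 CPM in the MCT rats, against 15.6, 23.6, 28.5 and 16.1 CPM in the PBS rats, and Igf1 and its binding protein Igfbp4 changed by 1.13 and 2.04. MCT replicate 4 held the most Igfbp4, at 907 CPM.

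Rac is a small GTPase that controls the actin skeleton and endothelial barrier. Prex2, an exchange factor that activates Rac, had 94.7, 83.9, 107 and 83.6 CPM in the MCT rats, against 243, 235, 268 and 248 CPM in the PBS rats. Tiam1, another Rac exchange factor, was higher with 27.6, 20.2, 17.7 and 28.005 CPM in the MCT rats, against 7.85, 4.65, 4.54 and 4.58 CPM in the PBS rats. The 2 exchange factors therefore lay on opposite sides, each with groups that did not overlap. Of 13 Wnt genes tested, 6 fell and 3 rose, close to the shares of all genes with a symbol. Fzd4, a Wnt and norrin receptor of vessels, had 66.1 to 87.9 CPM in MCT libraries, against 210.4 to 272 CPM in PBS libraries, and Frzb, a secreted Wnt antagonist, had 26.3, 51.7, 29.5 and 42.01 CPM in the MCT rats, against 6.01, 6.45, 1.67 and 4.58 CPM in the PBS rats.

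Epithelial genes changed less uniformly. Of 8 genes of alveolar type 1 cells tested, 4 fell, 1 rose and 3 were not called. Cav1, which endothelium also expresses strongly, had 697 to 834 CPM in MCT libraries, against 1626 to 2163 CPM in PBS libraries, and Clic5 had 999 to 1284 CPM in MCT libraries, against 1998 to 2509 CPM in PBS libraries. Ager, the defining type 1 gene, had a log2 fold change of 0.15 with an adjusted p of 0.509, and its groups overlapped. Among 8 genes of alveolar type 2 cells, 2 rose, 1 fell and 5 were not called. Sftpa1 lay above PBS in every MCT library, at a log2 fold change of 0.57 just under the threshold (adjusted p = 0.00647). Il33, an alarmin stored in type 2 cell nuclei in rodents, had 159.6, 113, 111 and 131 CPM in the MCT rats, against 647, 599, 615 and 461 CPM in the PBS rats, and the MCT libraries were all low. Of 4 genes that mark transitional alveolar epithelium, Cdkn1a (1.98), Lgals3 (1.78) and Krt7 (0.61) rose and Itgb6 fell (-0.94), though macrophages also express Lgals3.

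Club cells line the small airways and secrete the protein encoded by Scgb1a1, the most abundant named gene that fell. It had 6567, 8527, 4232 and 4588 CPM in the MCT rats, against 10619, 13966, 18036 and 12743 CPM in the PBS rats (log2 fold change -1.21 ± 0.23 (SE), adjusted p = 0.00298). All MCT libraries were below all PBS libraries, while another secretoglobin, Scgb3a2, had 195, 385, 183 and 189 CPM in the MCT rats, against 194, 185, 129 and 253 CPM in the PBS rats and was not called (adjusted p = 0.38). Cyp4b1, a lung cytochrome P450, had 215 to 265 CPM in MCT libraries, against 425 to 695 CPM in PBS libraries. Bpifb1, a secreted defence protein of airway epithelium, rose with 221, 239, 98.3 and 184 CPM in the MCT rats, against 61.96, 24.1, 20.6 and 94.6 CPM in the PBS rats. Over the airway list, 4 of 10 fell and 1 rose, close to the shares of all genes with a symbol.

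Cyp1a1 had the largest fall of any named gene. This P450, induced through the aryl hydrocarbon receptor, is found in lung endothelium of the rat, and it had 13.3, 3.34, 2.41 and 2.25 CPM in the MCT rats, against 135, 131, 240.1 and 197 CPM in the PBS rats (log2 fold change -5.05 ± 0.57 (SE), adjusted p = 0.000147). MCT replicate 1 stood above the other MCT libraries but was still far below every PBS library. Fmo1 and Fmo2, flavin-containing monooxygenases that oxidise nitrogen and sulphur compounds, had 29.4 to 38.7 CPM in MCT libraries, against 199.9 to 330.4 CPM in PBS libraries and 55.2 to 162 CPM in MCT libraries, against 363 to 468 CPM in PBS libraries. Neither overlapped between groups. The receptor gene Ahr itself fell by 0.93 on the log2 scale, with overlapping groups because MCT replicate 1 had 227 CPM and PBS replicate 1 had 224 CPM. Cyp2e1 changed by -1.76, and Adh1, an alcohol and retinol dehydrogenase, rose by 1.33. Of 20 xenobiotic genes tested, 10 fell and 4 rose (median -0.79), not far from the shares of all genes with a symbol.

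Macrophage genes rose as a group. Of 28 genes of macrophages and monocytes tested, 25 rose and 1 (Lyve1) fell, with a median of 1.70, and their summed level was 11159 to 14402 CPM in MCT libraries, against 3405 to 4139 CPM in PBS libraries. Gpnmb, a glycoprotein of lipid-laden and phagocytic macrophages, had 1962, 1053, 1115 and 1438 CPM in the MCT rats, against 321, 224, 265 and 244 CPM in the PBS rats (log2 fold change 2.40 ± 0.20 (SE), adjusted p = 2.75e-05). Arg1, arginase 1 of alternatively activated macrophages in rodents, had 73.4, 77.99, 49.4 and 95.9 CPM in the MCT rats, against 9.35, 8.39, 10.4 and 5.61 CPM in the PBS rats. Retnla, a secreted protein of the type 2 response in rodents, had 1463, 1347, 1003 and 875 CPM in the MCT rats, against 245, 157, 131 and 219 CPM in the PBS rats. In each, the lowest MCT library was more than the highest PBS library. The pan-macrophage gene Adgre1, which encodes F4/80, had 40.6, 33.7, 41.3 and 31.0 CPM in the MCT rats, against 30.6, 17.3, 27.2 and 28.9 CPM in the PBS rats and was not called (adjusted p = 0.062), nor was Itgax (CD11c), at 0.63.

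Lysosomal genes, which encode the acid hydrolases that digest engulfed material, rose in 16 of 19 and fell in none (median 1.37). Ctsd, the protease cathepsin D, was by CPM the most abundant named gene that rose, with 4102, 3489, 3081 and 3819.6 CPM in the MCT rats, against 846, 760.1, 666 and 639 CPM in the PBS rats (log2 fold change 2.32 ± 0.13 (SE), adjusted p = 2.27e-06). Ctsk, cathepsin K, a collagen-digesting protease of osteoclasts and activated macrophages, had 108, 41.98, 40.8 and 81.3 CPM in the MCT rats, against 6.05, 8.21, 1.82 and 4.74 CPM in the PBS rats (log2 fold change 3.71 ± 0.45 (SE), adjusted p = 0.000246). Psap, the precursor of the saposins that help break down sphingolipids, had 3447, 1886, 2544 and 2382 CPM in the MCT rats, against 1261, 1269, 1219 and 1245 CPM in the PBS rats. MCT replicate 1 was the highest of the 8 libraries for each of these genes, and PBS values of Psap barely varied. Ctsb (1.62), Ctsz (1.90), Npc2 (1.46), Acp5 (1.48) and Gaa (1.39) rose as well. Since many of these genes are shared with the macrophage list, the groups are not separate counts.

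The palindrome CACGTG, which transcription factors of the TFEB family bind in lysosomal promoters, was looked for on both strands from 250 bases before to 50 bases after each start in RefSeq (GRCr8). It was present in 5 of the 15 lysosomal genes tested that have such a promoter, and in 6.42% of all 33469 promoters. Ctsd holds it in 2 places, and its promoter is shown because Ctsd carries the largest lysosomal signal, with the motif in capitals (chr1:206968772-206969071, minus strand).
Ctsd promoter: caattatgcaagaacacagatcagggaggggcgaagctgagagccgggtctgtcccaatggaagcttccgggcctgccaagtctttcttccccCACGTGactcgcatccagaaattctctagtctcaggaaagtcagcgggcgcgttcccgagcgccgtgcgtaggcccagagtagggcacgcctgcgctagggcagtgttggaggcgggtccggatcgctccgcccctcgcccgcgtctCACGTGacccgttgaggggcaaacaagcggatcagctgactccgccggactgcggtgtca
The promoters of Ctsk, Ctsz, Ctsa and Npc2, which all rose, have no CACGTG in this window. Cln3, which was not called (log2 fold change 0.09), holds it in 2 places. These matches describe the sequence alone.

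Complement genes rose in 10 of 13 (median 1.26). C1qb and C1qc, subunits of the C1q recognition protein made by tissue macrophages, had 90.2 to 182 CPM in MCT libraries, against 15.4 to 33.4 CPM in PBS libraries and 89.3 to 165 CPM in MCT libraries, against 18.7 to 33.1 CPM in PBS libraries. Their log2 fold changes were 2.39 and 2.39, and neither overlapped between groups. C6, a component of the membrane attack complex, had 267, 166, 253 and 236 CPM in the MCT rats, against 10.7, 61.2, 12.9 and 62.2 CPM in the PBS rats, and PBS replicates 2 and 4 were well above replicates 1 and 3. Cfd and the receptor C5ar1 changed by 2.24 and 1.31. The regulator Cd46 fell by 0.97, at 3.58 to 6.13 CPM in MCT libraries, against 6.88 to 14.6 CPM in PBS libraries, and its call was lost when any 1 of 5 libraries was left out.

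Mast cells sit around airways and vessels and store histamine and proteases in granules. Cpa3, carboxypeptidase A3 of the granules, had the largest rise of any named gene, with 548, 235, 288 and 339 CPM in the MCT rats, against 13.1, 14.8, 4.18 and 10.2 CPM in the PBS rats (log2 fold change 5.06 ± 0.41 (SE), adjusted p = 1.96e-05). Fcer1a, the chain of the IgE receptor that binds IgE, had 43.6, 22.1, 18.7 and 16.3 CPM in the MCT rats, against 2.81, 2.16, 2.18 and 2.24 CPM in the PBS rats. Mrgprx2, a receptor through which human mast cells respond to peptides and drugs, had 19.5, 11.8, 12.3 and 21.003 CPM in the MCT rats, against 1.74, 1.25, 0.691 and 1.12 CPM in the PBS rats. Every MCT library exceeded every PBS library many-fold in these genes, with MCT replicate 1 highest for Cpa3 and Fcer1a. Hdc, which makes histamine, changed by 2.36, the IL-33 receptor Il1rl1 by 2.19 and the amine transporter Slc18a2 by 1.06. Kit, the stem cell factor receptor that mast cells need, went the other way with 136, 98.4, 118 and 162 CPM in the MCT rats, against 285, 308, 346 and 303 CPM in the PBS rats, as did Gata2 (-0.97). Both are also expressed in endothelium, and the part of those cells in their levels was not tested. Of 9 mast cell genes tested, 6 rose and 2 fell, and the 6 remained called when any single library was left out.

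Of 20 neutrophil genes listed, only 5 had a symbol and were tested. These gave no common change, with 1 of 5 up. That gene was Lcn2, lipocalin 2, which epithelium and macrophages also make, with 1443, 2194, 1352 and 1336 CPM in the MCT rats, against 160.1, 7.402, 80.7 and 73.4 CPM in the PBS rats (log2 fold change 4.30 ± 0.68 (SE), adjusted p = 0.00117). PBS values differed widely, with replicate 1 the highest and replicate 2 the lowest, but the lowest MCT library was still far above them. S100a9 (0.99, adjusted p = 0.124) and Csf3r (-0.36, adjusted p = 0.288), which neutrophils carry at high levels, were not called. Among 15 cytokines and chemokines, 8 rose and 5 fell. Ccl2, the chemokine that draws in monocytes, had 80.4, 58.7, 26.97 and 37.5 CPM in the MCT rats, against 6.46, 4.69, 3.13 and 4.74 CPM in the PBS rats. Pf4, platelet factor 4, which some macrophages also make, had 23.5 to 33.996 CPM in MCT libraries, against 4.07 to 9.695 CPM in PBS libraries, and Cxcl1 changed by 1.43. Mif was also called lower, but by 1 library alone: it had 0.729, 0.712, 0.697 and 0.912 CPM in the MCT rats, against 1.04, 0.916, 0.218 and 51.6 CPM in the PBS rats, and without PBS replicate 4 its log2 fold change was 0.10 (adjusted p = 0.928). Processed copies of Mif are common in rodent genomes, so its reads are uncertain.

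Lymphocyte genes were mostly lower in the list of T cells and natural killer cells. Of 26 genes of T cells and natural killer cells tested, 18 fell and 1 rose (median -1.33), and their summed level was 362 to 488 CPM in MCT libraries, against 717 to 1184 CPM in PBS libraries. Gzma, granzyme A of cytotoxic granules, had 1.32, 1.95, 4.98 and 1.14 CPM in the MCT rats, against 38.8, 11.6, 23.01 and 50.1 CPM in the PBS rats (log2 fold change -3.71 ± 0.55 (SE), adjusted p = 0.00082). Prf1, perforin, had 16.5, 11.3, 34.2 and 9.41 CPM in the MCT rats, against 125, 61.997, 81.8 and 153 CPM in the PBS rats. Klrd1, the CD94 receptor chain of natural killer cells, had 7.12, 6.28, 9.76 and 4.66 CPM in the MCT rats, against 39.8, 20.7, 39.4 and 28.9 CPM in the PBS rats. PBS libraries varied among themselves, with replicate 2 the lowest for all 3 genes, but none reached down to the MCT values. Gzmk and Ncr1 changed by -2.61 and -2.12. Cd4, which macrophages of the rat also carry, rose by 0.86, and Foxp3 of regulatory T cells was not called (0.90, adjusted p = 0.309), at 1.69 to 3.65 CPM in MCT libraries, against 0.182 to 2.54 CPM in PBS libraries. Ccl5, Il15 and Tnfsf10, cytokines of or for cytotoxic cells, had log2 fold changes of -2.06, -1.89 and -3.52. Tnfsf10, the death ligand TRAIL, had 43.3, 35.5, 24.8 and 20.97 CPM in the MCT rats, against 293, 366, 433 and 342 CPM in the PBS rats. Of 6 genes of B cells and plasma cells, 3 fell, not far from the 40.6% of all genes with a symbol. The summed level of the 6 overlapped between groups, at 105 to 226 CPM in MCT and 147 to 402 CPM in PBS libraries. Blk (-0.09) and Tnfrsf13b (-0.49) were not called. Bank1, a B cell adaptor, fell most, with 9.21, 3.43, 5.45 and 2.51 CPM in the MCT rats, against 48.4, 66.7, 55.6 and 39.6 CPM in the PBS rats. Ms4a1, which encodes CD20, had 3.43 to 10.1 CPM in MCT libraries, against 13.2 to 19.6 CPM in PBS libraries, and Jchain of antibody-secreting cells was not called, at 81.9 to 180.2 CPM in MCT libraries, against 51.6 to 287 CPM in PBS libraries.

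Interferon-stimulated genes (ISGs) encode antiviral proteins that cells switch on together when interferon is sensed. Of 28 ISGs tested, 26 fell and none rose, with a median of -1.57, but here the PBS rats differed widely among themselves. Ifi44l had 15.04, 8.198, 15.4 and 12.7 CPM in the MCT rats, against 43.99, 74.9, 75.3 and 86.2 CPM in the PBS rats (log2 fold change -2.45 ± 0.25 (SE), adjusted p = 7.2e-05). Rsad2, the antiviral enzyme viperin, had 9.04, 5.14, 16.99 and 10.4 CPM in the MCT rats, against 19.9, 67.5, 49.8 and 81.1 CPM in the PBS rats (log2 fold change -2.39 ± 0.43 (SE), adjusted p = 0.0024). Irf7, the transcription factor that amplifies the response, had 39.2, 38.98, 83.5 and 62.6 CPM in the MCT rats, against 73.2, 219.6, 218 and 516 CPM in the PBS rats (log2 fold change -2.19 ± 0.49 (SE), adjusted p = 0.0067). PBS replicate 4 was the highest and PBS replicate 1 the lowest PBS library for all 3 genes, and MCT replicate 3 the highest MCT library. For Irf7 the groups overlapped.

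Herc6 had 45.7, 36.3, 66.4 and 37.6 CPM in the MCT rats, against 68.6, 260.0, 253 and 402 CPM in the PBS rats. Mx1, a GTPase that blocks influenza viruses, had 32.1, 23.9, 74.98 and 39.9 CPM in the MCT rats, against 65.5, 151, 129 and 402 CPM in the PBS rats, and Oas2, a sensor of double-stranded RNA, had 3.08, 3.12, 15.1 and 3.81 CPM in the MCT rats, against 7.78, 35.5, 28.4 and 67.02 CPM in the PBS rats. Here PBS replicate 1 lay within or near the MCT range while the other PBS libraries were higher, so only 14 of the 28 ISGs had groups that did not overlap. Mx2 changed by -2.37, and Isg15 (-0.94, adjusted p = 0.112) and Dhx58 (-0.82, adjusted p = 0.0976) were not called. Summed over the 28 genes, the level was 1155 to 1961 CPM in MCT libraries, against 2012 to 5798 CPM in PBS libraries. Left out in turn, single libraries changed the number of ISGs called lower to between 18 (without MCT replicate 2) and 28 (without PBS replicate 1), and it was 20 without PBS replicate 4.

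**Figure D4:**
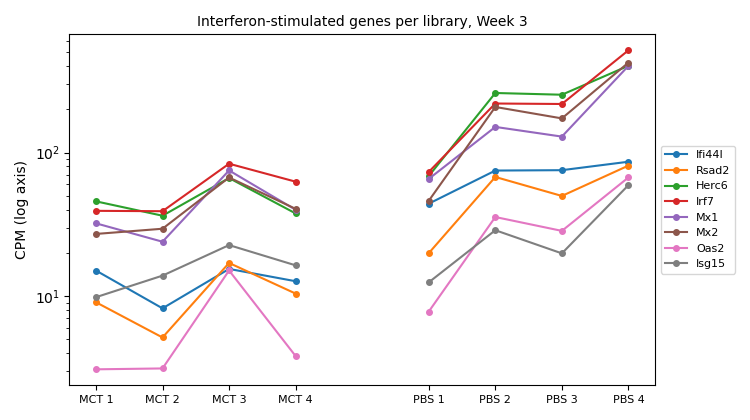
CPM on a log axis of 8 interferon-stimulated genes in each library of Week-3, the 4 MCT libraries on the left and the 4 PBS libraries on the right. Lines join the values of a gene within a group and carry no order. All 8 genes have their lowest PBS value in PBS replicate 1 and their highest in PBS replicate 4.

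Promoters of these genes were examined for a known element. The core of the interferon response element that STAT and IRF proteins bind, GAAA followed by any 2 bases and a further GAAA, was searched on both strands in the same RefSeq windows of 300 bases (GRCr8). It was present in 15 of the 19 ISGs tested that have an entry, or 78.9%, and in 3.92% of all promoters. The promoters of 3 ISGs that fell are shown 5′ to 3′ along the gene's strand, with each match in capitals (read as TTTC, any 2 bases and TTTC where it lies on the other strand). In Rsad2 (chr6:48788071-48788370, minus strand) it begins 147 bases before the start, in Irf7 (chr1:205799974-205800273, minus strand) 69 bases before it, and in Ifi44l (chr2:243328473-243328772, plus strand) 91 and 59 bases before it.
Rsad2 promoter: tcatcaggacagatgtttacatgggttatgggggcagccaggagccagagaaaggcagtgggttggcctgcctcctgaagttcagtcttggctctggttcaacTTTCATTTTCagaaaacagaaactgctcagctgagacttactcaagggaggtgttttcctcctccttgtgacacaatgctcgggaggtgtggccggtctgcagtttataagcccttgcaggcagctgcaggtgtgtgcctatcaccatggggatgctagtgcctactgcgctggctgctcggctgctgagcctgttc
Ifi44l promoter: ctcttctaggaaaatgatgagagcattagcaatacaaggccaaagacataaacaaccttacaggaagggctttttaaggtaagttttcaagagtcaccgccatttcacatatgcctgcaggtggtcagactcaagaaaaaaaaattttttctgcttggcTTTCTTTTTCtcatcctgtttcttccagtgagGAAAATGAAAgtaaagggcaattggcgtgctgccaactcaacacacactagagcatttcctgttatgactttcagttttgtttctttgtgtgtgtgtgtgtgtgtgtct
Irf7 promoter: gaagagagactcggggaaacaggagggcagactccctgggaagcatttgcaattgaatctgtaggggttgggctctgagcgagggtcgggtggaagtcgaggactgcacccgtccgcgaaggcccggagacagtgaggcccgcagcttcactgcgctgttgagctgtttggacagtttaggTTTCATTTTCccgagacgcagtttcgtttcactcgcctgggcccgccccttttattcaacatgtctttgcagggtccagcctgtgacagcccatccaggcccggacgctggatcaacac
Genes of this list with no match, such as Mx1 and Herc6, fell as well. A match is a description of the sequence and says nothing about binding in these lungs.

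Genes of the extracellular matrix rose. Of 31 matrix proteins tested, 20 rose and 2 fell (median 0.68), and their summed level was 10155 to 11849 CPM in MCT libraries, against 4337 to 6082 CPM in PBS libraries. Fn1, fibronectin, had 3084, 2614, 3765 and 3477 CPM in the MCT rats, against 929.9, 828, 616 and 975 CPM in the PBS rats (log2 fold change 1.95 ± 0.16 (SE), adjusted p = 2.61e-05). Thbs2, thrombospondin 2, which restrains vessel growth, had 114, 84.6, 95.99 and 82.9 CPM in the MCT rats, against 7.54, 10.003, 12.3 and 9.36 CPM in the PBS rats (log2 fold change 3.27 ± 0.17 (SE), adjusted p = 1.57e-06). Spp1, osteopontin, had 395, 472, 176 and 379 CPM in the MCT rats, against 50.98, 7.402, 8.43 and 105 CPM in the PBS rats, with PBS replicates 2 and 3 far below replicates 1 and 4. All MCT libraries were above all PBS libraries for these genes. Col18a1, a basement membrane collagen, Tnc, tenascin C, and Col1a1, the main fibrillar collagen, changed by 1.84, 1.39 and 1.34. MCT replicate 1 was the lowest MCT library for all 3. The members that fell were Fbln2 (-0.85) and Matn4 (-0.73).

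Of 24 matrix enzymes and inhibitors, 17 rose and 1 fell (median 1.00). Mmp14, a membrane-bound collagenase, had 197 to 285 CPM in MCT libraries, against 41.1 to 76.8 CPM in PBS libraries, and Timp1, an inhibitor of such enzymes, had 83.2 to 113 CPM in MCT libraries, against 26.9 to 34.5 CPM in PBS libraries. Enzymes and inhibitors were raised together. Adam12 changed by 2.08, and Mmp16 fell by 1.29 on the log2 scale. Fibroblast genes themselves split, with 5 of 14 up and 3 down. Cthrc1, a marker of activated fibroblasts, had 7.82 to 12.9 CPM in MCT libraries, against 3.49 to 5.799 CPM in PBS libraries, and Scara5 changed by 1.43. Among 8 genes of smooth muscle and pericytes, 3 rose and 2 fell. Des, the intermediate filament desmin, had 185, 371, 319 and 295 CPM in the MCT rats, against 119.7, 110.1, 76.5 and 142 CPM in the PBS rats. Cnn1, calponin of contractile smooth muscle, had 51.6, 127, 125 and 108 CPM in the MCT rats, against 50.7, 48.1, 28.3 and 63.98 CPM in the PBS rats, and Actg2 changed by 1.08. For Cnn1 and Actg2 MCT replicate 1 lay within the PBS range, and the other MCT libraries were above it. The pericyte genes Cox4i2 and Rgs5 fell by 1.28 and 0.61 on the log2 scale, the Rgs5 call being lost without any 1 of 6 libraries.

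Stress and metabolic genes gave a mixed picture. Hmox1, haem oxygenase 1, which breaks down haem and is induced by oxidants and in macrophages that clear red cells, had 202, 222, 239 and 269 CPM in the MCT rats, against 20.9, 27.4, 24.6 and 41.8 CPM in the PBS rats (log2 fold change 3.02 ± 0.21 (SE), adjusted p = 8.44e-06). Ftl1, ferritin light chain that stores the iron released, had 1319.6, 1548, 1624 and 1774 CPM in the MCT rats, against 451, 402, 284 and 514 CPM in the PBS rats. Sod2, the mitochondrial superoxide dismutase, had 289 to 446 CPM in MCT libraries, against 105 to 152 CPM in PBS libraries, and Prdx5 changed by 1.70. In all 4 genes the lowest MCT library was above the highest PBS library. Of 11 oxidative stress genes tested, 5 rose and 1, the oxidase Nox4 (-0.78), fell, with overlapping groups. Glycolysis genes rose in 7 of 10 and fell in none, led by Hk3, a hexokinase of myeloid cells, with 60.4, 64.04, 63.98 and 75.4 CPM in the MCT rats, against 13.6, 8.72, 7.05 and 11.7 CPM in the PBS rats, and Gapdh had 313 to 456 CPM in MCT libraries, against 125 to 216 CPM in PBS libraries. The glycolysis count was 4 without PBS replicate 3. The 10 erythroid genes tested gave no call in either direction, and haemoglobin genes took at most 0.0839% of counts in any library.

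Of 16 mitochondrially encoded genes tested, 5 fell and none rose (median -0.52). The count rested on single libraries, being 1 without PBS replicate 3 or MCT replicate 3, 3 without MCT replicate 2 or 4, 9 without PBS replicate 4 and 10 without MCT replicate 1. ND1 and ND2, subunits of respiratory complex I, were among the most abundant genes that fell, with 1720.0 to 2897 CPM in MCT libraries, against 3039 to 4406 CPM in PBS libraries and 1727 to 2888 CPM in MCT libraries, against 2948 to 5344 CPM in PBS libraries. All mitochondrial genes together took 3.10 to 4.48% of counts in MCT and 4.05 to 5.41% in PBS libraries, ranges that overlap. MCT replicate 3 held the least and PBS replicate 3 the most, and without either of them the calls of ND1 and ND2 were lost, as was that of ND2 without MCT replicate 4.

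On the clotting side, 8 of 16 haemostasis genes rose and 5 fell (3 without MCT replicate 2). F3, tissue factor, which starts coagulation, had 290.5, 504, 213 and 437 CPM in the MCT rats, against 107, 145, 176 and 153 CPM in the PBS rats. Thbd, thrombomodulin, which turns thrombin into an anticoagulant on endothelium, had 348, 331, 418 and 354 CPM in the MCT rats, against 1032, 1121, 1139 and 926 CPM in the PBS rats. Tfpi, the inhibitor of the tissue factor pathway, had 88.04 to 123 CPM in MCT libraries, against 174 to 262 CPM in PBS libraries. The starter was thus higher and both endothelial brakes were lower, each with separate groups. Factor XI (F11) fell by 2.26 on the log2 scale, at 2.44 to 4.04 CPM in MCT libraries, against 12.02 to 20.6 CPM in PBS libraries, and the plasminogen activator Plat rose by 0.68.

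Most cell cycle genes were not called. Of 59 mitosis genes tested, 20 rose and none fell (median 0.56), and of 42 genes of replication and S phase 7 rose and 1 fell (median 0.39). Birc5, survivin, had 3.74, 7.49, 8.02 and 7.07 CPM in the MCT rats, against 2.33, 1.94, 1.02 and 1.602 CPM in the PBS rats. Cdk1, the mitotic kinase, had 20.1, 22.8, 23.1 and 23.6 CPM in the MCT rats, against 15.7, 10.6, 6.397 and 9.64 CPM in the PBS rats. Tk1, thymidine kinase, had 22.8 to 32.4 CPM in MCT libraries, against 5.197 to 15.3 CPM in PBS libraries. PBS replicate 1 was the highest PBS library for Birc5 and Cdk1, and without it 35 mitosis genes were called higher in place of 20. With other single libraries left out, the mitosis count went as low as 15. The defining mitosis genes Mki67 (0.22, adjusted p = 0.512), Top2a (0.36, adjusted p = 0.176), Ccna2 (0.45, adjusted p = 0.165) and Ccnb1 (0.53, adjusted p = 0.129) were not called. Mki67, the proliferation antigen Ki-67, had 94.4, 79.8, 90.4 and 75.97 CPM in the MCT rats, against 114, 53.1, 47.1 and 77.7 CPM in the PBS rats, and its groups overlapped. The mitosis share called higher lies above the 19.3% of all genes with a symbol, and the S phase share lies below it. Calls in the lower direction lie far below the 40.6% of all genes with a symbol in both groups. The S phase count of 7 was 13 without PBS replicate 1. It was 3 with MCT replicate 2, MCT replicate 4 or PBS replicate 2 left out, and 4 with replicate 3 of MCT or of PBS left out. The cyclins Ccne1 and Ccne2 lay on opposite sides (1.51 and -0.89). Of 13 p53 targets, 5 rose, none fell and 8 were not called. Mdm2 (0.15, adjusted p = 0.39) and Fas (-0.37, adjusted p = 0.0739) were among those not called. Cdkn1a, the cell cycle inhibitor p21, had 147, 189, 187 and 177 CPM in the MCT rats, against 27.1, 43.9, 53.4 and 52.9 CPM in the PBS rats, and Aen and Phlda3 changed by 1.97 and 1.53.

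Channels and transporters and genes of no group were among the largest changes. Slc26a4, the anion exchanger pendrin, had 181, 176, 111 and 165 CPM in the MCT rats, against 8.69, 2.71, 4.76 and 12.2 CPM in the PBS rats (log2 fold change 4.47 ± 0.40 (SE), adjusted p = 3.65e-05). Aoc1, diamine oxidase, which breaks down histamine, had 142, 176, 181 and 234 CPM in the MCT rats, against 20.6, 37.997, 13.4 and 12.2 CPM in the PBS rats. Kcnk2, the potassium channel TREK-1, had 0.464, 1.95, 1.24 and 1.07 CPM in the MCT rats, against 30.6, 18.03, 24.2 and 19.1 CPM in the PBS rats (log2 fold change -4.27 ± 0.37 (SE), adjusted p = 3.13e-05). Both directions showed clear gaps between the groups. The channel subunit Kcnmb2 changed by -2.67 and the cation channel Trpv2 by 1.31. Of the 22 channels and transporters in their list, 11 fell and 3 rose, not far from the shares of all genes with a symbol. Serpinb10 had 2.13 to 6.56 CPM in MCT libraries, against 33.3 to 52.8 CPM in PBS libraries, Rgs7, a regulator of G protein signalling, had 0.629 to 1.66 CPM in MCT libraries, against 9.704 to 14.3 CPM in PBS libraries, and LOC685767 had 0.444 to 0.814 CPM in MCT libraries, against 6.09 to 15.4 CPM in PBS libraries. Vim, vimentin, one of the most abundant genes that rose, had 1567 to 2396 CPM in MCT libraries, against 1001 to 1333 CPM in PBS libraries.

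Other gene groups gave smaller or mixed counts. Of 10 genes of dendritic cells and antigen presentation tested, 5 rose and 2 fell, and of 10 genes of eosinophils and the type 2 response, 5 rose and 4 fell. Of 16 genes of the inflammasome and innate sensors, 6 rose and 3 fell. In a list of 11 genes of hypoxia-inducible factors and their targets, 5 rose and 2 fell, namely Vegfa and the factor gene Epas1 itself. The count that rose was 2 without PBS replicate 3 or MCT replicate 4 and 3 without MCT replicate 2. Of 18 genes of fatty acid and cholesterol metabolism, 5 rose and 4 fell, and of 7 senescence genes 2 rose and 3 fell. The circadian clock had 3 of 6 lower and none higher, and the immediate early and glucocorticoid response 3 of 7 lower and none higher. Heat shock genes gave 2 of 6 higher and 1 lower, and cell junctions 2 of 13 higher and 6 lower. Ribosomal proteins, which have many processed copies, rose in 5 of 13 and fell in 1, with 1 to 8 higher when single libraries were left out (1 without PBS replicate 2, 8 without PBS replicate 1 or MCT replicate 1).

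The MCT against PBS difference at Week-3 was finally set against that at Week-2 in 1 fit of 16 libraries with 4 group means. The difference changed for 2834 of 16893 genes, becoming higher for 1250 (7.40%) and lower for 1584 (9.38%), at an adjusted p under 0.05 with no fold threshold. Among genes with a symbol these shares were 8.89% and 26.1%. In a fit of all 24 libraries, which include those of Week-1, 12 genes passed. The count fell to 1505 without MCT replicate 4 of Week-3, 1838 without MCT replicate 2 of Week-3, 1726 without MCT replicate 4 of Week-2, 1741 without PBS replicate 3 of Week-2 and 1876 without PBS replicate 2 of Week-2. Each week had its own PBS rats, so changes in PBS lungs enter as well.

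Among ISGs, the difference was lower at Week-3 than at Week-2 for 19 of 28 genes and higher for none. Their median log2 fold change was -1.57 at Week-3 and -0.13 at Week-2. General endothelial genes followed with 26 of 43 lower and none higher, with medians of -1.28 and -0.71. Of the mitosis genes 28 of 59 were lower and none higher, their medians being 0.56 at Week-3 and 1.38 at Week-2. Mitochondrially encoded genes were lower in 12 of 16. Lysosomal genes were higher in 6 of 19 and lower in none, with medians of 1.37 and 0.75, while no mast cell, neutrophil or airway gene passed this test.

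Among single genes, the largest changes toward higher values were in Ctsk, with a log2 fold change of 3.71 at Week-3 and 1.52 at Week-2 (change 2.21 ± 0.53 (SE), adjusted p = 0.0129). Socs3, a feedback inhibitor of cytokine signals, had 20.5 to 49.6 CPM in MCT libraries, against 11.3 to 15.6 CPM in PBS libraries at Week-3, where its log2 fold change was 1.39, against -0.31 at Week-2 (change 1.71 ± 0.32 (SE), adjusted p = 0.00569). Naa38, Erp29 and Vwa1 changed by 2.03, 1.71 and 1.68 on the log2 scale. For Naa38, Socs3 and Erp29 the PBS mean was lower at Week-3 than at Week-2: Erp29, a chaperone of the endoplasmic reticulum, averaged 58.2 ± 17.3 CPM in MCT and 22.3 ± 7.08 CPM in PBS lungs at Week-3, and 40.3 ± 8.29 CPM in MCT and 50.7 ± 11.8 CPM in PBS lungs at Week-2 (SD, n = 4 each). Toward lower values, Cyp1a1 had -5.05 at Week-3 and -2.14 at Week-2 (change -2.90 ± 0.94 (SE), adjusted p = 0.0442). Lepr, the leptin receptor, averaged 1.34 ± 0.631 CPM in MCT and 9.92 ± 4.03 CPM in PBS lungs at Week-3, and 3.31 ± 1.26 CPM in MCT and 5.27 ± 0.937 CPM in PBS lungs at Week-2 (SD, n = 4 each) (change -2.21 ± 0.50 (SE), adjusted p = 0.0109). LOC690836, Tmem229a and MGC108823 changed by -2.95, -2.33 and -2.27.

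**Figure D5:**
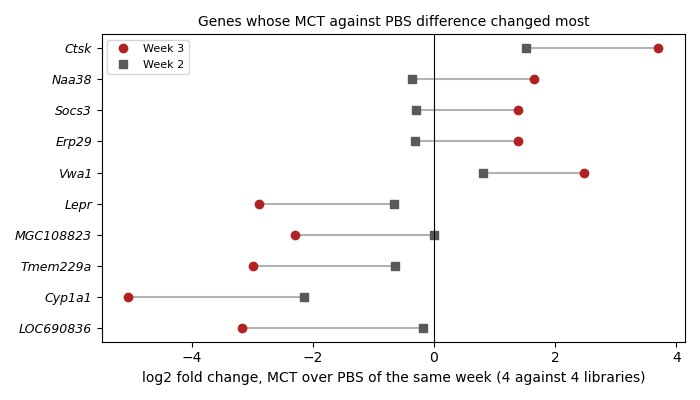
Log2 fold change of MCT over PBS lungs at Week-3 (circles) and at Week-2 (squares) for the 10 named genes with the largest change between the weeks, from fits of 4 against 4 libraries. Only named genes with separate MCT and PBS values at Week-3 and a higher mean of at least 5 CPM were ranked. Ctsk, Naa38, Socs3, Erp29 and Vwa1 lie further to the right at Week-3, and Lepr, MGC108823, Tmem229a, Cyp1a1 and LOC690836 further to the left.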

How the data were processed

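RNA-seq of 8 rat lungs (4 MCT and 4 PBS rats, Week-3) was used, with the 8 libraries of Week-2 for the comparison between weeks. The deposited values are raw counts, whole numbers for 32883 genes. Per the labels and the study's methods, the authors mapped cleaned reads to Rnor_6.0 (HISAT2 2.0.5), counted them per gene (featureCounts 2.0.3) and tested with DESeq2 1.32.0. The strand setting, the treatment of reads with several matches and the annotation release are not given in the sources used here, so overlapping genes and near-identical copies may share reads. Each library was grouped by its label.

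Genes were kept by filterByExpr in edgeR 4.0.16 (R 4.3.3), library sizes scaled by TMM, and a quasi-likelihood test run for MCT over PBS. P-values were adjusted by Benjamini-Hochberg, and calls needed values below 0.05 and over 1.5-fold. CPM used the scaled library sizes, and log2 CPM a prior count of 2. Each SE is the log2 fold change divided by the square root of F. The change between weeks was a contrast of 4 group means over 16 libraries. Total counts per library stand in the report. Alternatives were RLE size factors, no filter, DESeq2 1.42.0, weighted limma-voom (limma 3.58.1), robust dispersions, a fit of all 24 libraries, a replicate block, and each library left out. The methods were tested on simulated data.

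Symbols for 3275 genes came from the study's own table of genes. Promoters of RefSeq (GRCr8) were matched by Entrez number, and no coordinates were converted. The named genes are the 12 largest changes in each direction taken from symbol-bearing genes whose higher mean reached 5 CPM and whose MCT and PBS values stayed apart, up to 6 called members of each list described, with defining members that were not called, the 5 largest changes between weeks in each direction and the 4 most abundant genes called in each direction, apart from 1 gene and 1 list that are not reported here. The genes ranked by change between weeks passed the same filters on mean CPM and separate values at Week-3. Other lists are given by their counts. Members and lists were chosen with earlier results of these data known. The labels and methods give no sequencing batch. Since the labels name separate rats, p-values measure the spread between animals.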

Additional observations from a re-analysis of the deposited data

Results flagged for a closer look

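Some values in a group of 4 lay far from the other 3 by Dixon's test, which chance passes in about 1 of 20 groups. Of 412 groups checked, 23 passed, so their number is close to that. Among MCT libraries, replicate 1 was far above the others for Clic5 (1284 CPM, next 1045 CPM), Itgb6 (176 CPM, next 122 CPM), Csf3r (39.6 CPM, next 22.1 CPM), Il15 (14.0 CPM, next 10.1 CPM) and Cyp1a1 (13.3 CPM, next 3.34 CPM) and far below them for Phlda3 (72.0 CPM, next 133 CPM). MCT replicate 2 was far above for Scgb3a2 (385 CPM, next 195 CPM), Lcn2 (2194 CPM, next 1443 CPM) and Sh2d7 (6.06 CPM, next 2.09 CPM) and far below for Ramp2 (18.1 CPM, next 21.0 CPM). MCT replicate 3 was far above for Oas2 (15.1 CPM, next 3.81 CPM), and MCT replicate 4 for Mif (0.912 CPM, next 0.729 CPM).

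Among PBS libraries, replicate 1 was far above the others for Gaa (39.1 CPM, next 32.98 CPM), Fcer1a (2.81 CPM, next 2.24 CPM) and Tiam1 (7.85 CPM, next 4.65 CPM) and far below for Phlda3 (31.5 CPM, next 44.9 CPM). PBS replicate 2 was far above for Kng2 (13.7 CPM, next 7.91 CPM). PBS replicate 3 was far below for Cdh5 (760.4 CPM, next 950.0 CPM) and Npc2 (384 CPM, next 611 CPM) and far above for LOC685767 (15.4 CPM, next 7.62 CPM). PBS replicate 4 was far below for Calcrl (1615 CPM, next 2189 CPM) and Apln (103 CPM, next 138 CPM) and far above for Mif (51.6 CPM, next 1.04 CPM).

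The MCT against PBS difference changed between Week-3 and Week-2, by the test of that change, for the 10 named genes with the largest changes. It became higher for Ctsk (2.21 on the log2 scale), Naa38 (2.03), Socs3 (1.71), Erp29 (1.71) and Vwa1 (1.68), and lower for LOC690836 (-2.95), Cyp1a1 (-2.90), Tmem229a (-2.33), MGC108823 (-2.27) and Lepr (-2.21). In the fit of all 24 libraries only 12 genes in all passed this test.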

How the results depend on the processing

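With all 24 libraries in the fit 911 genes were higher and 918 lower in MCT lungs (against 1791 and 1775), and 12 genes changed between weeks (against 2834). Without PBS replicates 1 and 3 of Week-1, chosen after seeing the data, the larger fit called 2190 and 1757. RLE size factors, no filter, DESeq2, limma-voom and a robust dispersion gave 1802 to 2100 genes higher and 1617 to 1943 lower. Left out in turn, single libraries gave 1478 to 2002 genes higher, 1320 to 2041 lower and 1505 to 3915 changed between weeks. No source says that the replicate numbers pair the rats, and deviations of same-numbered rats correlated at -0.03 to 0.06, and not every MCT rat correlated best with the PBS rat of its own number. With the replicate block 1695 genes were higher, 1641 lower and 1903 changed between weeks, 1050 of them lower (against 1584). The log2 fold change of Mif lay between -4.54 and 0.10 with single libraries left out, reversing without PBS replicate 4 (adjusted p = 0.928). Among 202 of the genes named in the text, 18 changed side of the threshold with all 24 libraries, and 2 to 4 under the other settings of scaling, filter and tool. Krt7, Scnn1b, Rgs5, Cd46, Nox4, Adm, Htr2b, Ccne1, Mif, ND2 and RT1-CE10 each lost the call in 3 or more of 8 fits with 1 library left out, and Sftpa1, not called with all libraries, gained one in 5. The shortened table of symbols, not depth, limits which genes could be described.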

Other observations

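Tuft cells are rare chemosensory cells of airway epithelium, and their genes were low in MCT lungs. This list was chosen after values were seen, so it carries no test as a group. Of 7 members tested, 6 fell and Rgs13 was not called, with a median of -2.50. Pou2f3, the transcription factor that makes this cell type in the mouse, had 0.9605, 2.23, 1.299 and 1.76 CPM in the MCT rats, against 13.3, 9.71, 8.43 and 13.9 CPM in the PBS rats. Gnat3, the taste G protein gustducin, had 0.729, 1.67, 0.887 and 1.11 CPM in the MCT rats, against 8.24, 6.34, 10.1 and 10.7 CPM in the PBS rats. Trpm5, the channel that taste signals open, had 9.11, 25.6, 8.43 and 12.1 CPM in the MCT rats, against 58.9, 60.9, 74.9 and 82.7 CPM in the PBS rats. Hepacam2, Sh2d7 and Avil had log2 fold changes of -2.58, -2.50 and -1.33. The 6 stayed called when any single library was left out, and all 4 MCT values lay below all 4 PBS values in each. MCT replicate 2 was the highest MCT library for these genes.

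Genes of MHC class I presentation, a list also chosen after the values were seen, fell in 9 of 13 members and rose in none, and 5 were called without MCT replicate 2. B2m, the light chain shared by all class I molecules, had 2635, 1931, 2488 and 2008 CPM in the MCT rats, against 4029, 3326, 3407 and 3799.8 CPM in the PBS rats (log2 fold change -0.68 ± 0.13 (SE), adjusted p = 0.00253). RT1-T24-3 had 15.8, 35.2, 22.9 and 31.4 CPM in the MCT rats, against 41.6, 88.05, 103 and 135 CPM in the PBS rats, and RT1-CE10 had 20.2, 15.6, 10.8 and 18.7 CPM in the MCT rats, against 22.5, 15.6, 41.1 and 87.3 CPM in the PBS rats. For RT1-CE10 the groups overlapped and PBS replicate 4 set much of the difference, the log2 fold change being -0.67 without it (adjusted p = 0.137). RT1 genes are near-identical copies whose reads the counting may split, so single members are uncertain.

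Among hormone and cytokine receptors, chosen after the values were seen, 11 of 17 fell and 1 rose. Lifr, the receptor chain for leukaemia inhibitory factor, had 76.9, 75.02, 63.3 and 57.995 CPM in the MCT rats, against 392, 272, 427 and 443 CPM in the PBS rats. Glp1r, the receptor for the gut hormone GLP-1, had 19.1, 24.2, 25.8 and 33.4 CPM in the MCT rats, against 147, 155, 108 and 118 CPM in the PBS rats. All 4 MCT values lay below all 4 PBS values for both.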
